A study of Homo sapiens with 4 samples.

Results

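The 73 genes described here encode proteins of the mitochondrial ribosome and their transcripts were measured in RWP-1, an established line of human pancreatic cancer cells. They were chosen by name: each probe set that carried a single gene symbol of the form MRPL or MRPS followed by a number, with or without a closing letter A to C, was taken, and each gene was represented by its probe set with the highest mean over the 4 arrays. This gave 73 of the 14884 named genes on the array, 48 named for the large subunit (MRPL) and 25 for the small subunit (MRPS), from 82 probe sets. MRPS18C was not named and is not analysed here.

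RNA was taken from RWP-1 cells treated with rGAL1 (2 arrays) and from untreated RWP-1 cells, called Ctrl (2 arrays), and each array received label made from 100 ng of total RNA. The labels do not spell out rGAL1, read here as recombinant galectin-1, a protein that cells secrete and that binds galactose-bearing sugars, and they give no dose, time or vehicle. For the second rGAL1 array, the title and source name read rGAL1 whereas the treatment field reads control. It was kept as rGAL1. The subunit medians with it counted as Ctrl, and the differences of named members that this moves most, are given beside the results. The labels do not state that replicate arrays are separate cultures, so p-values reflect only how far these samples differ, and that spread may be technical.

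Values are log2 signals after RMA, a procedure that corrects background, normalises arrays and combines the probes of a set. Differences are rGAL1 minus Ctrl on that log2 scale. Precision is limited by the 4 arrays: the median standard error (SE) of a member's difference was 0.11 log2 units. The dim level was set at 4.70, the median of all probe sets' means. Of the epithelial marker list, 10 of 14 genes were named and all 10 lay above it, with the keratin KRT18 at a mean of 12.4 in both groups. Of these 10, 2 had a higher and 8 a lower mean in rGAL1, with a median difference of -0.073. None had an unadjusted p under 0.05, where 2.98% of all named genes did. The keratin KRT7 averaged 4.98 in rGAL1 and 5.36 in Ctrl. Named markers of other cell types lay above the dim level in 4 of 5 acinar, 3 of 4 leukocyte, 3 of 6 endocrine, 2 of 6 endothelial and 0 of 2 fibroblast genes. The acinar gene CTRB1, a chymotrypsinogen, averaged 5.62 in rGAL1 and 5.02 in Ctrl, a difference of 0.61 (SE 0.18, limma unadjusted p = 0.0222, adjusted p = 0.919). Over the members, arrays within a group differed as much as arrays across groups. For 2 arrays, the SD of the 73 differences was 0.131 log2 units for the rGAL1 pair, 0.129 for the Ctrl pair and 0.101 to 0.148 for pairs across the groups.

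The mitochondrial ribosome translates the few proteins encoded by mitochondrial DNA, all of them subunits of the oxidative phosphorylation complexes. Its RNAs come from mitochondrial DNA, whereas all of its proteins are encoded in the nucleus, made in the cytosol and imported. The small subunit binds the messenger RNA and decodes it, and the large subunit forms the peptide bond and releases the new chain through an exit tunnel at the inner membrane. Many members are counterparts of bacterial ribosomal proteins, and others are specific to mitochondria. The symbols follow the subunit a protein was first assigned to. Structures later placed MRPS18A and MRPS30 in the large subunit, and both are kept with the small subunit here by name.

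All 73 members lay above the dim level, as did 71.8% of named genes. The median large subunit gene had a signal of 7.51 in rGAL1 and 7.53 in Ctrl, and the median small subunit gene 7.86 in rGAL1 and 7.80 in Ctrl. The median over all named genes was 5.84 in rGAL1 and 5.82 in Ctrl. Ranked among all named genes by Ctrl mean, the median large subunit gene stood at the 81.7 percentile and the median small subunit gene at the 85.7 percentile. Large minus small was -0.34 in rGAL1 and -0.27 in Ctrl. The Ctrl medians were closer, at 7.57 for the large and 7.67 for the small subunit, with MRPS18A and MRPS30 counted as large. Signals of different probe sets depend on their probes, so these are levels of signal and not of RNA, and no test was made between the subunits.

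Within the large subunit, Ctrl means ran between 5.48 and 10.02, with the middle 50% of genes between 6.83 and 8.07. The brightest was MRPL45, which anchors the ribosome at the inner membrane beside the tunnel exit, at 10.06 and 9.96 in rGAL1 and 9.98 and 10.06 in Ctrl. Next came MRPL58, a peptidyl-tRNA hydrolase built into the large subunit, at 9.07 and 9.05 in rGAL1 and 9.10 and 9.24 in Ctrl. MRPL37, a mitochondria-specific protein, followed, at 8.88 and 8.80 in rGAL1 and 8.77 and 8.90 in Ctrl. These 3 genes were bright on every array, and the groups overlapped for MRPL45 and MRPL37 and did not for MRPL58. The dimmest was MRPL52, at 5.54 and 5.56 in rGAL1 and 5.56 and 5.39 in Ctrl. Also dim was MRPL22, whose bacterial counterpart lines the exit tunnel, at 6.01 and 6.25 in rGAL1 and 6.14 and 6.15 in Ctrl. For both, values of the groups overlapped.

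Within the small subunit, Ctrl means ran between 6.09 and 10.2, with the middle 50% of genes between 7.47 and 8.73. MRPS35 was the brightest of all members, at 10.35 and 10.24 in rGAL1 and 10.25 and 10.23 in Ctrl. MRPS21, counterpart of bacterial S21, had 9.66 and 9.69 in rGAL1 and 9.55 and 9.68 in Ctrl. MRPS7, counterpart of bacterial S7, a protein of the subunit's head, had 9.11 and 9.17 in rGAL1 and 9.22 and 9.22 in Ctrl. Of these 3, only MRPS7 had groups that did not overlap, with a difference of -0.083 (SE 0.099). MRPS14, counterpart of bacterial S14, was the dimmest, at 6.31 and 5.80 in rGAL1 and 5.99 and 6.20 in Ctrl. MRPS33 was also dim, at 6.44 and 6.44 in rGAL1 and 6.31 and 6.45 in Ctrl. Both had overlapping groups.

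**Figure D1:**
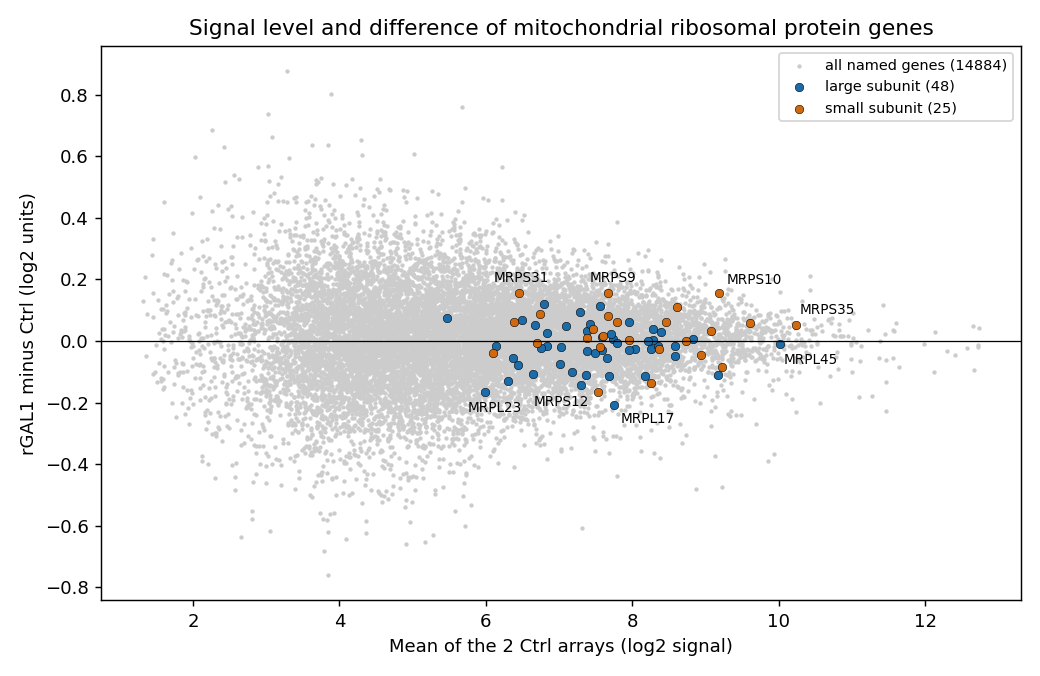
Ctrl mean log2 signal (horizontal axis) against rGAL1 minus Ctrl in log2 units (vertical axis) for the 73 members, with large and small subunit genes in different colours over all named genes in grey. The members lay between 5.48 and 10.2 in level and between -0.21 and 0.16 in difference.

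Nuclear genes for mitochondrial ribosomal proteins are known as targets of factors such as NRF1, ETS-family GABP and YY1, so the promoters were searched for exact matches to one short motif of each. The motifs were GCGCATGCG for NRF1, CCGGAAG for ETS or GABP and AAGATGGCG for YY1, on both strands of the RefSeq windows (build GRCh38.p14) of 250 bases before to 50 after each start. The NRF1 motif overlaps a shifted copy of itself on the other strand. Windows were matched for 65 of 73 members. MRPL10, MRPL13, MRPL15, MRPL2, MRPL21, MRPL23, MRPL35 and MRPS28 had no match. The ETS or GABP motif stood in 29 of 65 members (44.6%), against 17.1% of named genes and 12.2% of all genes with a window. The YY1 motif stood in 12 members (18.5%), against 3.32% of named genes and 2.14% of all genes. It lay before the start in 3 of these (25%), against 36.7% of named genes with the motif. On the gene's strand after the start it lay in 9 (75%), against 60.5% of named genes with the motif. The NRF1 motif stood in 2 members (3.08%), against 3.28% of named genes and 2.34% of all genes. A match is a description of letters and not a binding site.

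Shares were close in the subunits: the ETS or GABP motif stood in 43.9% of large and 45.8% of small subunit genes, and the YY1 motif in 19.5% of large and 16.7% of small. One promoter per motif is shown, 5′ to 3′ along the gene's strand and before the annotated start. Matches that end before the start are in capitals. The promoters belong to MRPL17 (chr11:6683341-6683441, minus strand, NRF1), MRPL52 (chr14:22829769-22829886, plus strand, YY1) and MRPL58 (chr17:75012457-75012669, plus strand, ETS or GABP, the first match on the opposite strand). MRPL52 also has an ETS or GABP match on the opposite strand from base -5. It runs past the start, so it is cut here and left in lower case.
MRPL17: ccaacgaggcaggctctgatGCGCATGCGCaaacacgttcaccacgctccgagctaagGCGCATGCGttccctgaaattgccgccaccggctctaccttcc
MRPL52: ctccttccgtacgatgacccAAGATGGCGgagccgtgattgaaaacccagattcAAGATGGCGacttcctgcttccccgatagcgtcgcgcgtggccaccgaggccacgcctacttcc
MRPL58: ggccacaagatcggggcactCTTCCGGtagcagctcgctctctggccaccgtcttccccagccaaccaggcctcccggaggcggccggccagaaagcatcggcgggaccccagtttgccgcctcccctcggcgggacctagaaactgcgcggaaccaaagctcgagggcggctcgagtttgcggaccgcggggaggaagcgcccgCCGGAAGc
The median difference was -0.018 over members with the ETS or GABP motif and -0.0033 over those without it. For YY1 it was 0.038 with the motif and -0.015 without. For NRF1 it was -0.11 over the 2 members with the motif, MRPL17 and MRPL22, and -0.0052 without. These gaps were not tested.

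No member passed the test between rGAL1 and Ctrl. In limma over all 53617 probe sets, no probe set had an adjusted p under 0.05 (0% called), and 5.24% had an unadjusted p under 0.05. Of the 73 members, 0 had an unadjusted p under 0.05, where 2.98% of named genes did (444 genes), and 1.55% of those within the members' range of level. The smallest unadjusted p of a member was 0.160, for MRPS12 (limma adjusted p = 0.924). Member differences ran between -0.21 and 0.16, a fold size of at most 1.15. The difference was under 0.1 log2 units in size in 56 members (76.7%), against 57.4% of named genes and 66% of the named genes within the members' range of level. In all, the groups did not overlap in 22 members (30.1%), against 37.2% of named genes and 40.5% of those in that range. The median fold size was 1.03 over the members and 1.06 over named genes.

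The intervals bound what these arrays allow. For 72 of 73 members (98.6%) the 95% interval of the difference stayed within 1.5-fold in either direction, where it did for 86.3% of named genes and 95.9% of those within the members' range of level. The exception was MRPL54, with an interval between -0.70 and 0.55. That count was chosen after the values were seen, and it was 62 to 65 when any 1 array was left out. A p that misses the threshold does not show that levels were equal.

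**Figure D2:**
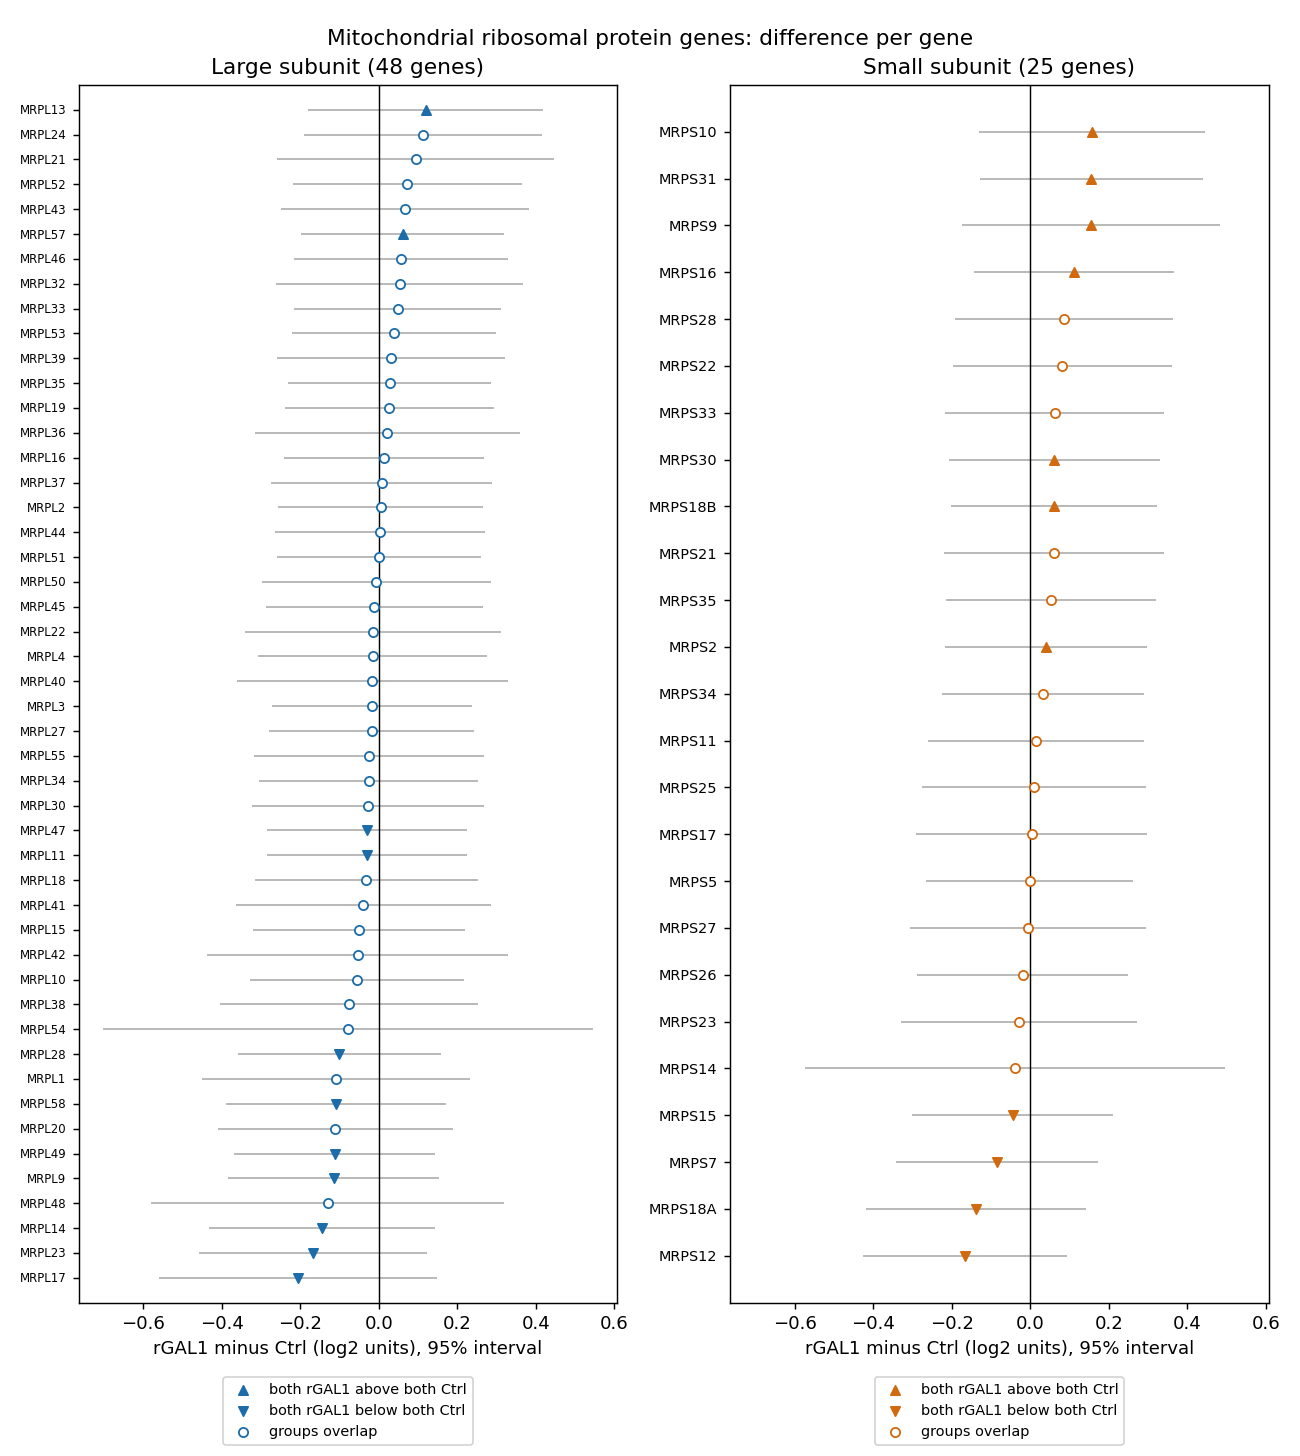
rGAL1 minus Ctrl in log2 units (horizontal axis) for each of the 73 members (rows, by subunit and size), with points for the difference and bars for the 95% interval of the limma fit. Every interval crosses 0, and that of MRPL54, between -0.70 and 0.55, is the widest.

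Across the large subunit, 19 of 48 genes had a higher mean in rGAL1 and 29 a lower one, where 51.7% of named genes were higher. The median difference was -0.017, with the middle 50% of genes between -0.060 and 0.027, against 0.0056 over named genes. Over named genes within the members' range of level, the median was 0.012 and 54.4% were higher. Both rGAL1 arrays lay above both Ctrl arrays in 2 of the 48 (4.17%), against 20.2% of named genes and 23.6% of those in that range. They lay below both Ctrl arrays in 9 (18.8%), against 17% of named genes and 16.9% of those in that range. The remaining 37 overlapped. The count with a higher mean was 15 to 26 when 1 array was left out. The median of the large subunit was 0.0034 without rGAL1 2, 0.0014 without Ctrl 2 and 0.012 with rGAL1 2 counted as Ctrl, so the sign of the median rested on single arrays.

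The lowest difference of any member belonged to MRPL17, counterpart of bacterial L17, which had 7.62 and 7.46 in rGAL1 and 7.63 and 7.87 in Ctrl. Both rGAL1 values lay below both Ctrl values, though rGAL1 1 and Ctrl 1 were almost level. The difference was -0.21 (SE 0.14, limma adjusted p = 0.925), and it was -0.084 without Ctrl 2, -0.33 without Ctrl 1 and -0.030 with rGAL1 2 counted as Ctrl. MRPL23, whose bacterial counterpart L23 sits at the mouth of the exit tunnel, had 5.80 and 5.85 in rGAL1 and 5.91 and 6.07 in Ctrl. The groups did not overlap, and the difference was -0.17 (SE 0.11, limma adjusted p = 0.925), or -0.088 without Ctrl 2. MRPL14, which faces the small subunit and receives the silencing factor MALSU1 during assembly, had 7.17 and 7.14 in rGAL1 and 7.22 and 7.38 in Ctrl. Its difference was -0.14 (SE 0.11, limma adjusted p = 0.937), with no overlap, and was -0.064 without Ctrl 2, -0.22 without Ctrl 1 and -0.077 with rGAL1 2 counted as Ctrl.

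Other large subunit genes with both rGAL1 arrays below both Ctrl arrays differed by less. MRPL9, counterpart of bacterial L9, had 8.10 and 8.01 in rGAL1 and 8.20 and 8.14 in Ctrl, a difference of -0.11 (SE 0.10) that was -0.069 without rGAL1 2 and -0.016 with that array counted as Ctrl. MRPL49, a mitochondria-specific protein, had 7.58 and 7.55 in rGAL1 and 7.67 and 7.70 in Ctrl, a difference of -0.11 (SE 0.098) that was -0.057 with rGAL1 2 counted as Ctrl. MRPL58 differed by -0.11 (SE 0.11), with Ctrl 2 the highest of its 4 arrays, and by -0.039 without Ctrl 2, -0.18 without Ctrl 1 and -0.062 with rGAL1 2 counted as Ctrl. In the other direction, MRPL13, counterpart of bacterial L13, had 6.92 and 6.90 in rGAL1 and 6.89 and 6.70 in Ctrl, a difference of 0.12 (SE 0.11, limma adjusted p = 0.954). Ctrl 2 stood alone there, as the difference was 0.026 without it, and it was 0.21 without Ctrl 1. MRPL57 had 7.996 and 8.05 in rGAL1 and 7.95 and 7.97 in Ctrl, a difference of 0.061 (SE 0.099) that was 0.034 without rGAL1 2 and 0.0045 with that array counted as Ctrl. It was the other large subunit gene with both rGAL1 arrays above both Ctrl arrays.

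Across the small subunit, 16 of 25 genes had a higher mean in rGAL1 and 9 a lower one, where 51.7% of named genes were higher. The median difference was 0.032, with the middle 50% of genes between -0.019 and 0.063, against 0.0056 over named genes. Over named genes within the members' range of level, the median was 0.012 and 54.4% were higher. Both rGAL1 arrays lay above both Ctrl arrays in 7 of the 25 (28%), against 20.2% of named genes and 23.6% of those in that range. They lay below both Ctrl arrays in 4 (16%), against 17% of named genes and 16.9% of those in that range. The remaining 14 overlapped. The small subunit median stayed between 0.030 and 0.041 when any 1 array was left out, and was 0.042 with rGAL1 2 counted as Ctrl. It depended on the probe set rule, and was lower with the mean of all probe sets per gene, as given in the section on processing. With rGAL1 2 kept as rGAL1, it was also 0.032 without MRPS18A and MRPS30, the pair that structures place in the large subunit. With that pair added, the median of the large subunit was -0.017.

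MRPS10, counterpart of bacterial S10 in the subunit's head, had 9.40 and 9.29 in rGAL1 and 9.25 and 9.13 in Ctrl. No rGAL1 value fell within the range of Ctrl, and the difference was 0.16 (SE 0.11, limma adjusted p = 0.929), the highest of any member, and 0.10 without either rGAL1 1 or Ctrl 2. MRPS31, a mitochondria-specific protein, had 6.69 and 6.54 in rGAL1 and 6.44 and 6.47 in Ctrl. The groups did not overlap, with a difference of 0.16 (SE 0.11, limma adjusted p = 0.929) that was 0.081 without rGAL1 1. MRPS9, counterpart of bacterial S9, had 7.95 and 7.70 in rGAL1 and 7.68 and 7.66 in Ctrl. The first rGAL1 array stood apart from the other 3, and the difference of 0.16 (SE 0.13, limma adjusted p = 0.940) was 0.032 without it, 0.28 without rGAL1 2 and 0.27 with rGAL1 2 counted as Ctrl. MRPS16, counterpart of bacterial S16, had 8.72 and 8.72 in rGAL1 and 8.62 and 8.59 in Ctrl, a difference of 0.11 (SE 0.097, limma adjusted p = 0.948) that was 0.074 with rGAL1 2 counted as Ctrl.

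The brightest probe set of MRPS16 had tight groups that did not overlap, and its other probe set did not repeat the pattern. That one had 7.18 and 7.13 in rGAL1 and 7.20 and 7.08 in Ctrl, a difference of 0.0085. MRPS2, counterpart of bacterial S2, also had a pair of probe sets, with differences of 0.040 and -0.024. The large subunit gene MRPL44, whose protein has an RNase III-like fold, differed by 0.0039 on its bright probe set and by -0.067 on a probe set that averaged 2.97, under the dim level. MRPS18B had 7 probe sets with identical values.

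In the other direction, MRPS12, counterpart of the bacterial decoding-centre protein S12, had 7.40 and 7.35 in rGAL1 and 7.52 and 7.56 in Ctrl. Its groups did not overlap. The difference was -0.17 (SE 0.099, limma adjusted p = 0.924), with a 95% interval between -0.43 and 0.094, and lay between -0.19 and -0.14 with any 1 array left out, or at -0.074 with rGAL1 2 counted as Ctrl. The paralogs MRPS18A and MRPS18B, both related to bacterial S18, had differences of opposite sign. MRPS18A had 8.11 and 8.14 in rGAL1 and 8.19 and 8.33 in Ctrl, a difference of -0.14 (SE 0.11, limma adjusted p = 0.939) that was -0.069 without Ctrl 2. MRPS18B had 7.87 and 7.85 in rGAL1 and 7.83 and 7.76 in Ctrl, a difference of 0.061 (SE 0.10, limma adjusted p = 0.972) that was 0.023 without Ctrl 2 and 0.098 without Ctrl 1. The gap between the paralogs was not tested. MRPS30 had 8.47 and 8.58 in rGAL1 and 8.46 and 8.47 in Ctrl, a difference of 0.062 (SE 0.10), with the second rGAL1 array above the other 3. It was 0.0070 without that array, 0.12 without rGAL1 1 and -0.032 with rGAL1 2 counted as Ctrl.

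**Figure D3:**
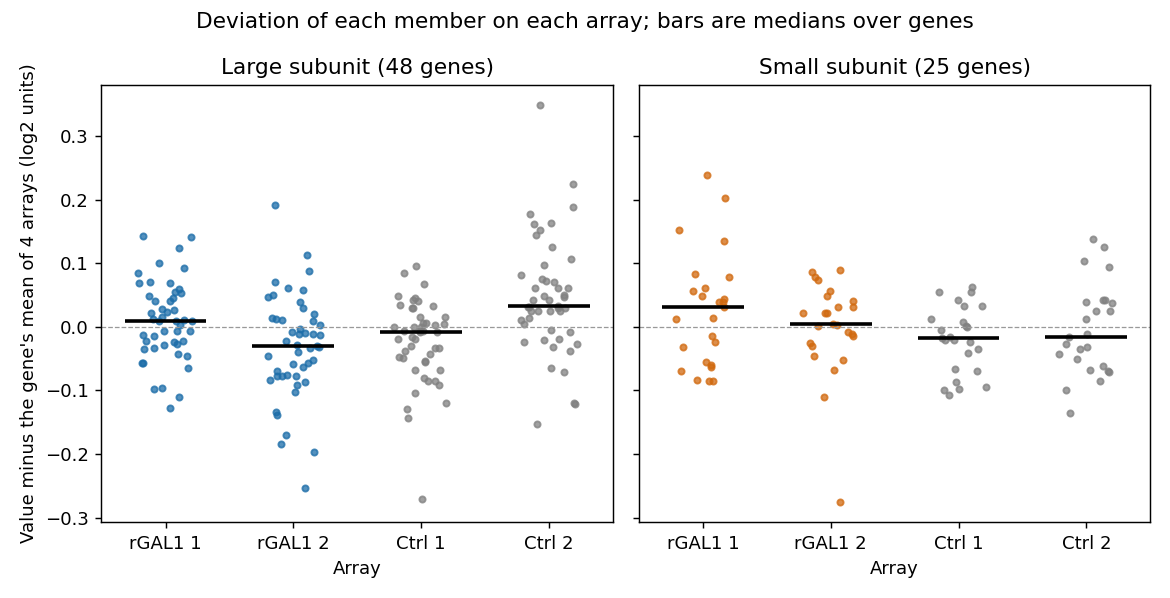
Deviation of each gene's log2 signal from its mean over the 4 arrays (vertical axis) on each array (horizontal axis, rGAL1 left of Ctrl), for large and small subunit genes, with the median marked. The large subunit median was -0.030 on rGAL1 2 and 0.032 on Ctrl 2, and the small subunit median was 0.031 on rGAL1 1.

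The large minus small median difference was -0.049, and the arrays that stood out differed between the subunits. Relative to each gene's own mean, the median large subunit gene was at 0.0091 on rGAL1 1 and -0.030 on rGAL1 2, against -0.0081 on Ctrl 1 and 0.032 on Ctrl 2. The median small subunit gene was at 0.031 on rGAL1 1 and 0.0043 on rGAL1 2, against -0.018 on Ctrl 1 and -0.016 on Ctrl 2. The large minus small gap of these medians was -0.022 on rGAL1 1 and -0.034 on rGAL1 2, against 0.010 on Ctrl 1 and 0.049 on Ctrl 2. It was thus below 0 on both rGAL1 arrays and above 0 on both Ctrl arrays. A gene's deviations balance around 0 by construction, so these gaps largely restate the median difference and are not separate support for it. By the median within each subunit, rGAL1 2 was low and Ctrl 2 high for the large subunit, and rGAL1 1 was high for the small. Ctrl 2 held the highest value in 24 of 48 large subunit genes (50%), against 27.2% of named genes. The lowest value was on rGAL1 2 in 18 (37.5%, against 23.5% of named genes) and on Ctrl 1 in 17 (35.4%, against 26.6%). rGAL1 1 held the highest value in 10 of 25 small subunit genes (40%), against 27.5% of named genes. That array also held the lowest value in 7 small subunit genes (28%), against 23.4% of named genes. The large minus small median difference lay between -0.077 and -0.035 when 1 array was left out, and was -0.030 with rGAL1 2 counted as Ctrl. It was not tested.

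Spread between arrays of a group was small. The pooled within-group SD had a median of 0.071 log2 units over all members, 0.079 over the large subunit and 0.068 over the small. It was 0.093 over named genes and 0.071 over named genes within the members' range of level, so members varied about as much as other genes of like brightness. The largest SD was 0.34, for MRPL54, which had 6.49 and 6.23 in rGAL1 and 6.13 and 6.75 in Ctrl. MRPS14, given above, followed with an SD of 0.28. MRPL48 had 6.37 and 5.99 in rGAL1 and 6.20 and 6.42 in Ctrl, an SD of 0.22. All 3 were dim for members, their groups overlapped, and the sign of each difference turned when single arrays were left out. The smallest SD was 0.013, for MRPL16, counterpart of bacterial L16, at 7.59 and 7.62 in rGAL1 and 7.59 and 7.59 in Ctrl. MRPL3, whose bacterial counterpart reaches towards the peptidyl transferase centre, had an SD of 0.016 and a difference of -0.018 (SE 0.098).

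Of the related gene lists, 0 named genes had an unadjusted p under 0.05, where 2.98% of all named genes did. The median size of a difference was 0.049 over the members and 0.019 over mitoribosome-linked proteins under other symbols. It was 0.080 over assembly factors, 0.061 over translation factors and 0.064 over the transcription list, against 0.084 over named genes. Groups did not overlap in 30.1% of members, 16.7% of the other-symbol proteins, 45.2% of assembly factors, 50% of translation factors and 37.5% of the transcription list, against 37.2% of named genes. Of 9 other symbols listed for mitoribosome-linked proteins, 6 were named, 4 higher and 2 lower in rGAL1, with a median of 0.011. Among them DAP3, a GTP-binding protein of the small subunit, differed by 0.0079, and PTCD3, a pentatricopeptide-repeat protein of the small subunit, by 0.021. Of 40 symbols listed for assembly factors and rRNA-modifying enzymes, 31 were named, 17 higher and 14 lower, with a median of 0.0041. Of 20 translation factors, 14 were named, 8 higher and 6 lower, with a median of 0.020. LRPPRC, which stabilises mitochondrial messenger RNAs, differed by 0.036. Of 19 genes of mitochondrial transcription and its nuclear regulators, 8 were named, 6 higher and 2 lower, with a median of 0.043. NRF1 differed by 0.11. TUFM, TFAM, GABPA, the 17 mitochondrial aminoacyl-tRNA synthetases and the 15 listed genes of mitochondrial DNA were not named and are not analysed here, so the ribosomal RNAs that the members assemble with have no value.

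**Figure D4:**
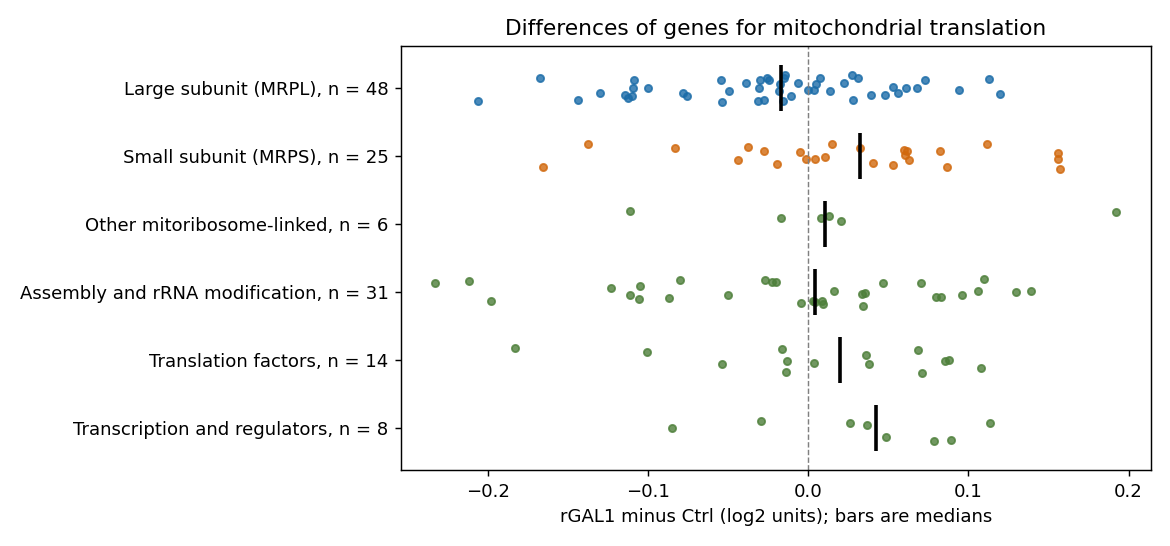
rGAL1 minus Ctrl in log2 units (horizontal axis) for each named gene of the members and of the related lists (rows), with the median marked. List medians lay between -0.017 for the large subunit and 0.043 for the regulators of mitochondrial transcription.

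Some members start close to a gene that runs the other way. An opposite-strand start lay within 1000 bases upstream in 24 of the 65 members with a window (36.9%), against 23.8% of named genes with one. The partner was a named gene for 12 of the 24. Of these, 0 had an unadjusted p under 0.05, where 2.98% of all named genes did. Member and partner differed in the same direction in 7 of the 12, which count the pair MRPL46 and MRPS11 once from each side. The following pairs were picked after their values were seen. MRPL46 and MRPS11, a large and a small subunit gene, have starts 320 bases apart and differed by 0.056 (SE 0.10) and 0.015 (SE 0.10). MRPL49 starts 49 bases from FAU, which encodes a ubiquitin-like fusion of the cytosolic ribosomal protein S30. FAU averaged 6.97 in rGAL1 and 7.20 in Ctrl, a difference of -0.23 (SE 0.099, limma adjusted p = 0.919), beside -0.11 for MRPL49. MRPS16 starts 97 bases from the antisense gene DNAJC9-AS1, which differed by -0.28 (SE 0.13, limma adjusted p = 0.919) beside 0.11 for MRPS16. DNAJC9-AS1 averaged 4.41 in rGAL1 and 4.69 in Ctrl, under the dim level. MRPL27 starts 45 bases from EME1, a DNA repair endonuclease subunit, which differed by 0.31 (SE 0.12) beside -0.018 for MRPL27. PTCD2 differed by 0.27 (SE 0.10), and MRPS27, which starts 133 bases away, by -0.0052.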

How the data were processed

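RNA of 4 RWP-1 samples (2 rGAL1, 2 Ctrl) was hybridised to 1-colour arrays. The deposited values are log2 expression per probe set. RMA and limma were used by the authors, per the submitters' processing notes, and the sources used here do not give versions or a genome build. Groups and numbers came from the titles. No sample column was left unused. Of 53617 probe sets, 16098 had 1 gene symbol, 0 several and 37519 none.

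All probe sets were fitted with limma 3.58.1 in R 4.3.3 (lmFit, eBayes, no block, two-sided), with Benjamini-Hochberg adjustment over all of them and a threshold of 0.05. The fit had 2 residual and 2.75 prior degrees of freedom. It was tested on simulated data, where many changes larger than any member's difference were missed. Medians over genes were computed in Python 3.11.15 and carry no test, because members share the 4 arrays. The numbers were not taken as pairs, because the submitters name no block. Same-numbered arrays did not deviate together (r = -0.048 over all probe sets, -0.21 over members). With 2 arrays a group, this cannot show whether the numbers mark pairs, and a fit with a replicate block is given below.

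Genes and lists were chosen with earlier results of these data known. Named members were the 8 largest non-overlapping differences in each direction, the 3 brightest and dimmest of each subunit, the 3 largest and smallest SDs, the MRPS18 paralogs and genes with more than 1 probe set. Of the pathway lists, genes at an unadjusted p under 0.05 were to be named, of which there were none, and TUFM, LRPPRC, TFAM, NRF1, GABPA, DAP3 and PTCD3 in any case. Promoters were shown for members with a motif match. Alternatives were other scalings, probe set rules, fits, a replicate block, and leaving out each array.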

Additional observations from a re-analysis of the deposited data

How the results depend on the processing

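In limma, 0 probe sets had an adjusted p under 0.05 and 0 members an unadjusted p under 0.05 in every fit run, including the replicate block (0 probe sets and 0 members), which left the large subunit median at -0.017 and the small at 0.032. With any 1 array left out, the large subunit median lay between -0.047 and 0.0034 and large minus small between -0.077 and -0.035, and with rGAL1 2 counted as Ctrl the large subunit median was 0.012. The small subunit median was 0.046 with arrays centred and 0.015 with the mean of all probe sets per gene, which also gave a large subunit Ctrl level of 7.46. Of the 31 named members, 12 turned sign in at least 1 fit. Leaving out 1 array gave ranges of -0.057 to 0.071 for MRPL37, -0.0087 to 0.13 for MRPS21, -0.0059 to 0.13 for MRPS33, -0.047 to 0.055 for MRPL44, -0.064 to 0.043 for MRPL45, -0.012 to 0.16 for MRPL52, -0.29 to 0.22 for MRPS14, -0.39 to 0.23 for MRPL54, -0.14 to 0.11 for MRPL22 and -0.32 to 0.058 for MRPL48. Counting rGAL1 2 as Ctrl gave -0.032 for MRPS30, 0.064 for MRPL45, 0.32 for MRPS14, 0.12 for MRPL54, 0.16 for MRPL48, -0.0079 for MRPL16 and -0.0082 for MRPL44. MRPL22 moved from -0.015 to -0.17 with rGAL1 2 counted as Ctrl and kept its sign. MRPL45 was 0.0034 after quantile scaling and 0.0033 with arrays centred. The cause was not tested; fewer or relabelled arrays change the values by construction. The counts of intervals within 1.5-fold and of higher means, and the move of MRPS18A and MRPS30, were added after seeing the data: across these fits 62 to 73 members kept within 1.5-fold, 15 to 27 large and 15 to 19 small subunit genes were higher. With 2 arrays a group, differences near the SE of 0.11 could not be told from 0.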

Other observations

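Split by numbering after the values were seen, the 27 large subunit genes numbered up to 36, the range of bacterial counterparts, had a median difference of -0.018 (10 higher in rGAL1), and the 21 with higher numbers had -0.011 (9 higher). The 14 small subunit genes numbered up to 21 had a median of 0.0094 (8 higher), and the other 11 had 0.053 (8 higher). Of the assembly factor list, the largest differences, also picked after their values were seen, were -0.23 for the GTPase GTPBP6, -0.21 for FASTK and -0.20 for MTG1, a GTPase of large subunit assembly. CHCHD1, a small subunit protein, averaged 6.78 in rGAL1 and 6.59 in Ctrl, a difference of 0.19 (SE 0.10), with both rGAL1 arrays above both Ctrl arrays.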
